A study of Mus musculus with 27 samples.

Results

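Transcripts of the cholesterol synthesis pathway and its sterol control were measured in myeloid cells sorted from the inflamed mouse colon. Members were chosen by gene symbol, as the probes of the deposited array table whose symbol is Hmgcs1, Idi1, Fdps, Fdft1, Sqle, Cyp51, Insig1 or Srebf2. Of these 8 genes, 6 had a probe under their symbol, out of 30869 distinct symbols in the table, and together they had 13 probes. Hmgcs1 and Fdft1 had none and are not analysed here. The array file places Sqle and Srebf2 on chromosome 15, Idi1 on 13, Insig1 and Cyp51 on 5 and Fdps on 3. None of the 8 is a receptor for cholesterol uptake, so uptake genes were taken from a separate list.

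RNA was hybridised to Illumina MouseWG-6 BeadChips, single-colour arrays that read each probe as the brightness of its beads, and 25 of the 27 arrays of the series were used. The groups were colon monocytes (5 WT and 5 Mbd2-/- arrays), colon macrophages (5 and 5) and colon cDC1s (2 WT and 3 Mbd2-/- arrays), the cDC1s being the dendritic cells that the labels call CD11b negative. All mice of these groups, controls included, had received 2% DSS, dextran sodium sulfate, a drinking-water additive that damages the gut lining and brings on colitis. Mbd2-/- mice, Mbd2KO in the labels, lack the methyl-CpG-binding protein Mbd2 in every cell of the body, so a difference between genotypes need not arise in the sorted cell itself. Each replicate held the cells of 1 to 5 mice by the deposited record, and p-values measure the spread between these samples. By the paper's methods the mice were matched for age and sex, and the age of the mice behind each array is not given.

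Cholesterol is built from acetyl-CoA through mevalonate, isoprenoids and squalene, and the genes of most steps are switched on together by the transcription factor SREBP2, the product of Srebf2. Insig1 encodes a membrane protein that holds the SREBP precursor in the endoplasmic reticulum while sterols are plentiful, and Insig1 is itself a target of SREBP. In macrophages and dendritic cells, sterol synthesis is tied to interferon and inflammatory signalling, and cells that engulf debris also take up cholesterol and export it.

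SREBP binds sterol regulatory elements near its target genes, usually beside a CCAAT box, so the promoters of the measured members are shown with these motifs marked. RefSeq windows of build GRCm38.p6, from 250 bases before to 50 bases after the transcript start, were found for 4 of the 6 measured members. Capitals mark each CCAAT or its reverse complement ATTGG, and the sequences run 5′ to 3′ on the strand of the gene.
Srebf2, chr15:82147019-82147318, plus strand: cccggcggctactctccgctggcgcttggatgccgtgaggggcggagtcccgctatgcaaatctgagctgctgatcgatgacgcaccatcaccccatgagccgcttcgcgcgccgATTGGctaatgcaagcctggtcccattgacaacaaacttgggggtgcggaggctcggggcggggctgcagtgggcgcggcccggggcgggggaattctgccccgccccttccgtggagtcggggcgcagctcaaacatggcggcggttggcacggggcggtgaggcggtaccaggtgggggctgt
Insig1, chr5:28071162-28071461, plus strand: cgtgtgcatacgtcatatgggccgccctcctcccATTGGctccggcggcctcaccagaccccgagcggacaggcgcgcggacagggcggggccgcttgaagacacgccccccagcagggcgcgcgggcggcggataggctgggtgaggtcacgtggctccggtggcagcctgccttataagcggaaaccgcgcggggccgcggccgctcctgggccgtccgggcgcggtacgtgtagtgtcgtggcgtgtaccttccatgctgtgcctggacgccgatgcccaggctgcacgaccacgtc
Idi1, chr13:8885356-8885655, plus strand: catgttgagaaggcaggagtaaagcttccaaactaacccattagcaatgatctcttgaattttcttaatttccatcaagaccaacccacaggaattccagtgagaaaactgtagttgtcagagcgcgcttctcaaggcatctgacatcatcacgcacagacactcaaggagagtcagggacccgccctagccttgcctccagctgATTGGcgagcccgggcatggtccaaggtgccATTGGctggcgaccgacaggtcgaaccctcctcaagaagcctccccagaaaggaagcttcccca
Cyp51, chr5:4104648-4104947, minus strand: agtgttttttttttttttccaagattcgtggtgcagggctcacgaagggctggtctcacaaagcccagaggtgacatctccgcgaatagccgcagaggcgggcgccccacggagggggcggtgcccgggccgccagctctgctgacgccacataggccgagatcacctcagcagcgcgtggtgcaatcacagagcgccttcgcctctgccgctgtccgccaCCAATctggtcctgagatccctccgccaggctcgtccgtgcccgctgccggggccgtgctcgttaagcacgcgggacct

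CCAAT or ATTGG occurred at 2 places in the Idi1 window and at 1 place in each of the other three. The same letters, searched on both strands, lay in 37.4% of 32851 RefSeq promoter windows of the same length. The sterol regulatory element TCACNCCAC or its reverse complement GTGGNGTGA was in none of these 4 windows and in 1.24% of all windows, which says only that these letters are not in these windows. The window of Hmgcs1, which has no probe, held 1 sterol regulatory element, at positions -137 to -129 from the start.

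Mean bead brightness per array ran from 172 to 353 and the number of detected probes from 16024 to 18608, with Mbd2-/- cDC1s (172 to 228) dimmer than WT cDC1s (265 to 292). The probe of Mbd2 was detected on 0 of the 25 arrays and gave no check of the genotype labels. Markers went with the labelled cell types: the summed linear level of 9 cDC1 markers was 14451 to 16342 in cDC1s and 1181 to 2908 elsewhere, that of 11 macrophage markers 47879 to 56301 in macrophages and 2775 to 26413 elsewhere, and that of 8 monocyte markers 15365 to 26534 in monocytes and 4216 to 10114 elsewhere. Such sums are carried by their brightest genes, in the cDC1 list Itgae, the gene of CD103, by which the paper sorted these cells. The summed level of the epithelial list ran from 6090 to 22995 over the groups, and none of its 10 genes tested passed for genotype in any cell type. Of the 11 epithelial genes with a probe 10 were detected on every array of every group, and so were all 8 of the stromal list. In bulk samples such as these, fewer cells of a type and less RNA per cell cannot be told apart.

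The brightest probe of each gene stands for it, and its level is the log2 of the background-corrected and quantile-normalized brightness, a scale on which the Insig1 probe that was detected on no array lay between 4.18 and 4.57. Levels of different probes are not comparable with each other. A gene passed where its adjusted p was under 0.05 in a limma fit over all probes, and it was called where the log2 difference was also at least 1 in size.

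cDC1s held more transcript of 5 of the 6 genes than macrophages did, and more of the same 5 than monocytes did. The 5 were Srebf2 itself and the enzyme genes Idi1, Fdps, Sqle and Cyp51, with folds of 1.64 to 3.31 over macrophages and 1.56 to 3.32 over monocytes. Insig1, the gene of the sterol-sensing brake, went the other way, with a log2 difference of -0.34 from macrophages, which did not pass (limma, adjusted p = 0.131), and of -0.55 from monocytes, which did (adjusted p = 0.0163). The 2 comparisons share the cDC1 arrays and take the mean of both genotypes.

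**Figure D1:**
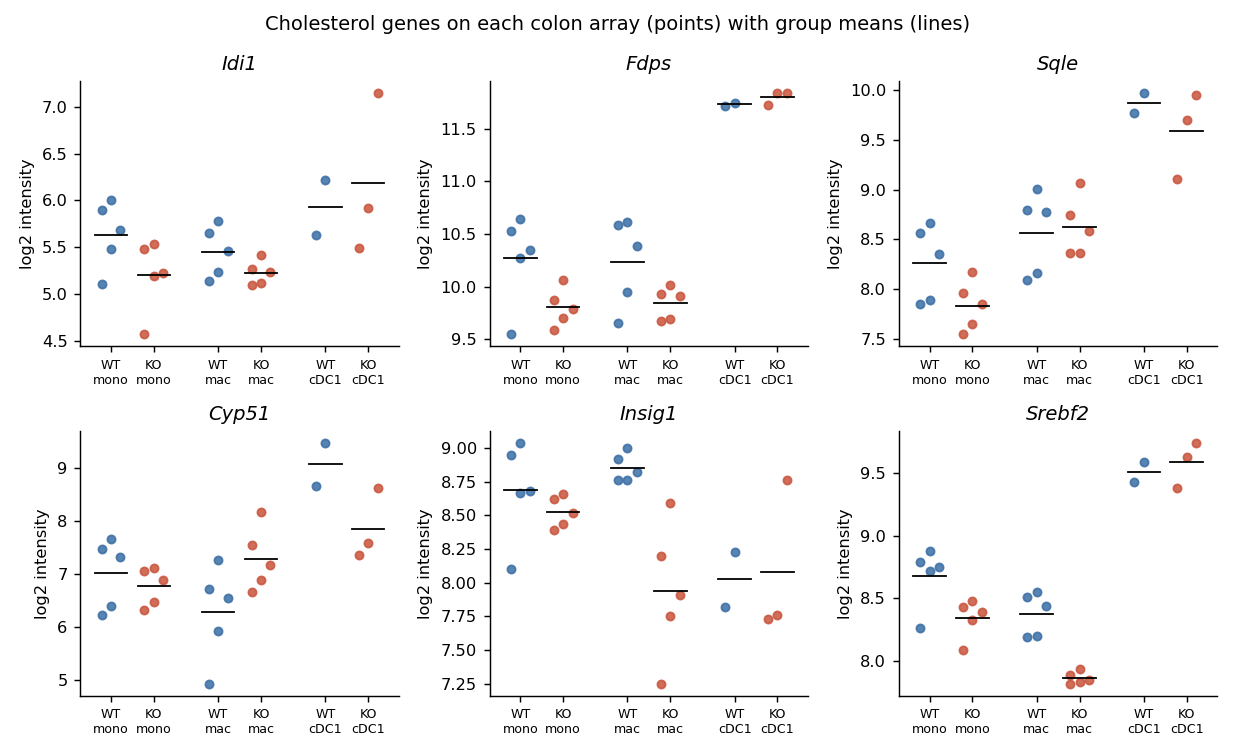
Log2 level of the 6 measured genes on each of the 25 colon arrays, 1 panel per gene, with arrays grouped by cell type and genotype, 1 point per array (WT blue, Mbd2-/- red and marked KO) and a bar at each group mean. Fdps, Sqle and Srebf2 lie higher on all 5 cDC1 arrays than on any monocyte or macrophage array, and Insig1 does not.

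Against macrophages the 5 of 6 members that passed upward stand beside 26.0% of all 13254 genes tested, and the 0 that passed downward beside 27.1%. Against monocytes the shares of all genes were 27.3% upward, where 5 members passed, and 26.6% downward, where 1 did. A difference of at least 1 was called upward for 4 members in each comparison, against 6.99% of all genes over macrophages and 7.94% over monocytes. On 3 members every cDC1 array exceeded every array of the other cell type in both comparisons, where 10.5% of all genes did so over macrophages and 14.3% over monocytes. The members' median log2 difference was 1.28 against macrophages (all genes -0.04) and 1.30 against monocytes (all genes -0.03).

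Srebf2, the regulator, read 9.43 and 9.59 on the 2 WT cDC1 arrays and 9.63, 9.74 and 9.38 on the 3 Mbd2-/- cDC1 arrays. Monocytes ranged from 8.09 to 8.88 and macrophages from 7.82 to 8.55, so the cDC1 arrays stood clear of both. This was a log2 difference of 1.43 from macrophages (2.69-fold, adjusted p = 2.16e-11) and 1.03 from monocytes (2.05-fold, adjusted p = 5.28e-09). The second Srebf2 probe gave 1.39 (adjusted p = 5.73e-10) and 1.14 (adjusted p = 1.49e-08). With arrays scaled to one median in place of quantile normalization, the difference from monocytes was 0.47 (adjusted p = 0.0515). The order of group means ran from Mbd2-/- and WT cDC1s, which overlapped, through WT monocytes, WT macrophages and Mbd2-/- monocytes, each overlapping its neighbour, to Mbd2-/- macrophages, which lay below all others.

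Fdps, which joins isoprene units into farnesyl diphosphate, varied least among cDC1s, at 11.72 and 11.75 in WT and 11.84, 11.73 and 11.84 in Mbd2-/-. Monocytes ranged from 9.55 to 10.64 and macrophages from 9.65 to 10.61, and no array of either reached the cDC1 level. In log2 terms Fdps was higher by 1.73 than in macrophages (3.31-fold, adjusted p = 3.29e-09) and by 1.73 than in monocytes (3.32-fold, adjusted p = 2.83e-09). The second Fdps probe was detected on 5 of 25 arrays and was tested in neither comparison. Among the other 4 groups, means of 9.80 to 10.27 differed by less than the SD of 0.43 in WT monocytes from 1 neighbour to the next, and all neighbours overlapped.

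Idi1, which isomerises the isoprene unit, showed the smallest of the 5 differences. Its levels were 5.63 and 6.22 in WT cDC1s and 5.49, 5.92 and 7.15 in Mbd2-/- cDC1s, against 4.57 to 6.00 in monocytes and 5.09 to 5.78 in macrophages. The cDC1 arrays overlapped both ranges, with Mbd2-/- cDC1 array 30 alone near 7. Its log2 difference was 0.72 from macrophages (1.64-fold, adjusted p = 0.00692) and 0.64 from monocytes (1.56-fold, adjusted p = 0.0143). Without WT cDC1 array 26 it was 0.57 (adjusted p = 0.0689) and 0.49 (adjusted p = 0.115), without Mbd2-/- cDC1 array 30 the difference from monocytes was 0.40 (adjusted p = 0.0669), and over WT arrays alone the differences were 0.475 (adjusted p = 0.179) and 0.295 (adjusted p = 0.421). Under median scaling they were 0.38 (adjusted p = 0.147) and 0.32 (adjusted p = 0.22). All neighbours in the order of Idi1 group means overlapped.

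Sqle, the squalene epoxidase that commits squalene to sterols, read 9.77 and 9.97 in WT cDC1s and 9.95, 9.11 and 9.70 in Mbd2-/- cDC1s. Macrophages lay at 8.09 to 9.07 and monocytes at 7.55 to 8.66. All 5 cDC1 arrays were above both, the lowest of them narrowly. The log2 difference was 1.13 from macrophages (2.20-fold, adjusted p = 1.39e-05) and 1.68 from monocytes (3.21-fold, adjusted p = 3.89e-08). Sqle also differed between the other cell types, at 0.55 higher in macrophages than in monocytes (1.46-fold, adjusted p = 0.00461), with overlapping arrays. Under median scaling the difference of cDC1s from macrophages was 0.57 (adjusted p = 0.0595), and over WT arrays alone that of macrophages from monocytes was 0.31 (adjusted p = 0.367). In the order of Sqle group means both macrophage groups followed the cDC1s and both monocyte groups came last, each overlapping its neighbour.

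Cyp51, the lanosterol demethylase, had the widest spread. Its levels were 9.47 and 8.66 in WT cDC1s and 8.62, 7.35 and 7.58 in Mbd2-/- cDC1s, 4.93 to 8.16 in macrophages and 6.22 to 7.65 in monocytes. The WT cDC1 arrays lay above every monocyte and macrophage array, and the Mbd2-/- cDC1 arrays overlapped both. For Cyp51 the log2 difference was 1.67 from macrophages (3.19-fold, adjusted p = 0.000193) and 1.57 from monocytes (2.97-fold, adjusted p = 0.000372). Over Mbd2-/- arrays alone the difference from macrophages was 0.56 (adjusted p = 0.205). WT cDC1s led the order of group means with no overlap with Mbd2-/- cDC1s, and every later neighbour overlapped, down to WT macrophages.

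Insig1 was the exception, with its levels on cDC1 arrays (7.82 and 8.23 in WT and 7.76, 7.73 and 8.76 in Mbd2-/-) inside the span of the other groups. All neighbours in the order of its group means overlapped. Macrophages ranged from 7.25 to 9.00 and monocytes from 8.10 to 9.04. The difference from monocytes did not pass without WT cDC1 array 23 (-0.455, adjusted p = 0.106) or without Mbd2-/- cDC1 array 27 (-0.47, adjusted p = 0.0532) or 28 (-0.47, adjusted p = 0.0543), nor over Mbd2-/- arrays alone (-0.44, adjusted p = 0.215). The difference from macrophages passed without Mbd2-/- cDC1 array 30 (-0.515, adjusted p = 0.0191), without Mbd2-/- macrophage array 19 (-0.43, adjusted p = 0.0417), under median scaling (-0.86, adjusted p = 0.00118) and over WT arrays alone (-0.83, adjusted p = 0.0105), while over Mbd2-/- arrays alone it was 0.14 (adjusted p = 0.718). The 2 dimmer Insig1 probes passed in neither comparison, with differences of 0.003 to -0.26.

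**Figure D2:**
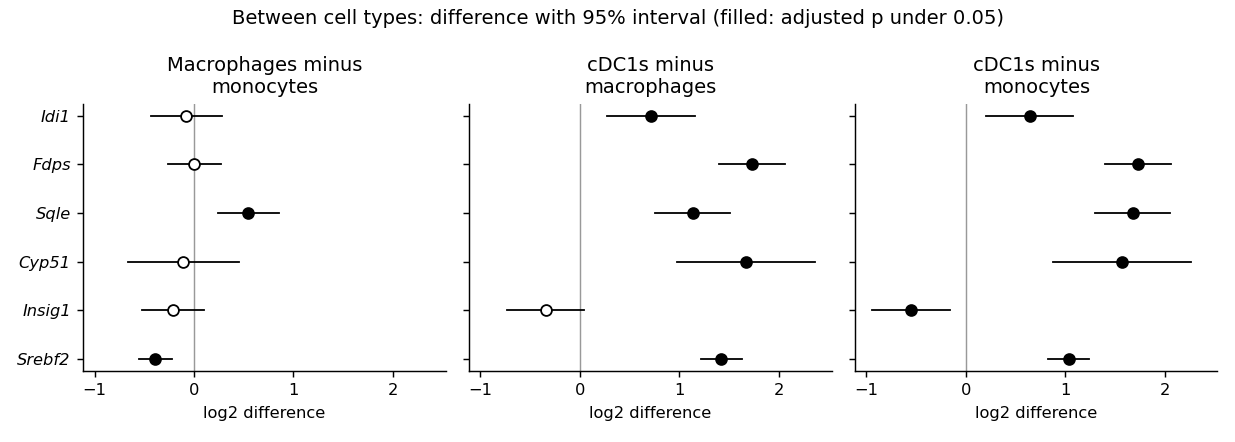
Log2 difference between cell types for each of the 6 genes, taken over the mean of both genotypes, with 95% confidence intervals from the limma fit, a line at 0 and filled points where the adjusted p was under 0.05. The differences of cDC1s from macrophages and from monocytes lie between 0.64 and 1.73 for 5 genes and below 0 for Insig1.

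Macrophages and monocytes were closer to each other. Srebf2 was lower in macrophages by a log2 difference of -0.39 (1.31-fold lower, adjusted p = 0.000434) and Sqle was higher as given above, so that 1 member passed upward, against 22.7% of all genes, and 1 downward, against 17.3%. Srebf2 did not pass under median scaling (-0.37, adjusted p = 0.0978) or over WT arrays alone (-0.30, adjusted p = 0.146). The members' median was -0.09 (all genes 0.02). Fdps was level between the 2 cell types, at 0.005 (95% interval -0.26 to 0.27), while the interval for Cyp51 ran from -0.66 to 0.45.

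Array columns stand in the deposited table in sets of 6, the number of arrays that a BeadChip of this type holds, although the chip itself is not named. All monocyte arrays lie in 2 of these sets and all macrophage arrays in 2 others, so a difference between sets and between these cell types cannot be told apart. Of the 5 cDC1 arrays, both WT arrays share a set with monocytes and Mbd2-/- arrays 27 and 28 with macrophages. Set against the arrays of the same genotype in its own set, each of these 4 cDC1 arrays was higher for Fdps (1.33 to 1.93), Srebf2 (0.68 to 1.86), Sqle (0.55 to 1.72) and Cyp51 (0.45 to 2.35), in a comparison chosen after the values were seen and not tested. For Idi1 the values ran from -0.06 to 0.68 and for Insig1 from -0.79 to 0.17.

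Genes of the same pathway outside the members were read from fixed lists. Beside them, 26.0% of all genes passed higher and 27.1% lower in cDC1s than in macrophages, and 27.3% and 26.6% than in monocytes. Of 12 other synthesis genes tested, 5 were higher and 1 lower in cDC1s than in macrophages, and 5 were higher and 0 lower than in monocytes. Their median log2 difference was 0.28 from macrophages (all genes -0.04), with 11 above 0 and 1 below. From monocytes it was 0.09 (all genes -0.03), with 6 above 0 and 6 below. Those that passed higher than in macrophages included Lss, which closes the sterol ring (log2 difference 1.39, adjusted p = 1.64e-07). Also higher than in macrophages were Hsd17b7, a ketoreductase of sterol demethylation (0.85, adjusted p = 0.00011), and Ebp, a sterol isomerase (0.73, adjusted p = 0.00177). Dhcr7, the reductase that makes cholesterol in the final reduction, was the 1 that was lower, at -0.47 (adjusted p = 0.00591). Of 8 genes of SREBP control, 2 were higher than in macrophages, beside 26.0% of all genes, and 0 were lower, beside 27.1%. The 2 were Scap, which escorts SREBP to the Golgi (1.23, adjusted p = 1.6e-09), and Erlin1, an endoplasmic reticulum protein (1.47, adjusted p = 6.78e-11).

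The uptake list, which also holds genes of lysosomal release and cholesterol transfer, went the opposite way. In it 1 of 9 was higher and 6 lower in cDC1s than in macrophages, and 0 were higher and 5 lower than in monocytes. For this and the next lists, the shares of all genes were 26.0% higher and 27.1% lower than in macrophages. Against monocytes they were 27.3% and 26.6%. The 1 gene of the uptake list that was higher than in macrophages was Scarb1 (log2 difference 0.67, adjusted p = 0.0444). Lrp1, an endocytic receptor, was lower by log2 differences of -2.12 (adjusted p = 1.93e-11) and -2.51 (adjusted p = 8.08e-13). Lipa, the lysosomal lipase that frees cholesterol from its esters, and Npc1, which carries it out of the lysosome, were lower than in macrophages by -2.31 (adjusted p = 3.49e-08) and -1.77 (adjusted p = 5.29e-12). Of 10 efflux and storage genes tested against macrophages, 2 were higher and 6 lower, among them Nr1h3, the sterol receptor LXR alpha (-4.59, adjusted p = 5.32e-15), and Apoe, the apolipoprotein that carries cholesterol from macrophages (-3.57, adjusted p = 2.21e-15). Of 8 fatty acid synthesis genes, 3 were higher and 1 lower than in macrophages, and 4 were higher and 0 lower than in monocytes.

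Other lists also moved with the cDC1 arrays. The summed level of 10 proliferation markers was 3362 to 4911 in cDC1s, 1320 to 1741 in macrophages and 678 to 927 in monocytes, with 7 of 8 tested higher than in macrophages and 8 of 8 higher than in monocytes, and with Bub1 and Ccnb2 detected on no array. The summed level of 7 T cell markers was 423 to 2941 in cDC1s and 269 to 612 elsewhere, with 4 of 6 tested higher and 1 lower than in macrophages. Shares of all genes were 26.0% higher and 27.1% lower than in macrophages, and 27.3% higher than in monocytes. Cd3d, Cd3e, Cd3g and Lck were detected on all 25 colon arrays, those of monocytes and macrophages included. Trat1 was detected on 2 of 5 cDC1 arrays and on 2 WT macrophage arrays. Cd2 was the 1 that was lower than in macrophages, by a log2 difference of -1.05. The part of these lists in the differences of the members was not tested.

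In macrophages, where the genotypes were compared over 5 and 5 arrays, both regulators were lower in Mbd2-/- and none of the 4 enzymes passed. Insig1 fell 1.88-fold and Srebf2 fell 1.42-fold, each with no overlap between the genotypes. The 2 of 6 members that passed stand beside 5.33% of 12506 genes tested, and the 2 with no overlap beside 5.23%. The members' median log2 difference was -0.31 (all genes -0.08), and the single values ran from -0.91 to 1.01.

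**Figure D3:**
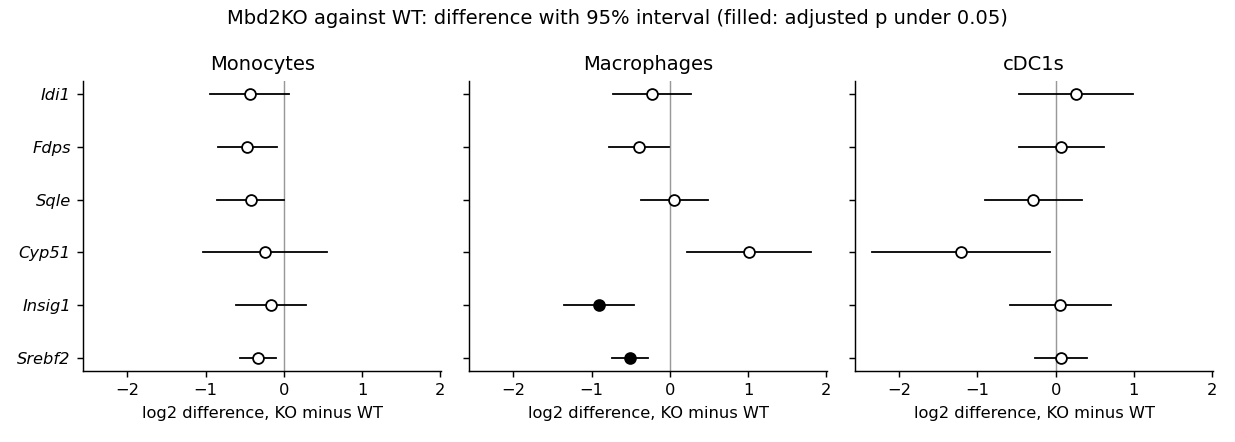
Log2 difference of Mbd2-/- from WT arrays for each of the 6 genes in monocytes, macrophages and cDC1s, with 95% confidence intervals from the limma fit, a line at 0 and filled points where the adjusted p was under 0.05. In macrophages Insig1 (-0.91) and Srebf2 (-0.51) passed at an adjusted p under 0.05, and no member did in monocytes or cDC1s.

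Srebf2 read 8.19, 8.55, 8.44, 8.20 and 8.51 on WT macrophage arrays and 7.83, 7.94, 7.85, 7.82 and 7.89 on Mbd2-/- macrophage arrays. The Mbd2-/- arrays lay close together and below every WT array. The log2 difference was -0.51 (95% interval -0.74 to -0.28, adjusted p = 0.0141), and it passed whichever of the 10 arrays was left out (adjusted p 0.0149 to 0.0449). The second probe differed by -0.32 and did not pass (adjusted p = 0.151). The difference also did not pass under median scaling (-0.56, adjusted p = 0.253) or with macrophages normalized and fitted alone (-0.51, adjusted p = 0.0676).

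Insig1 read 9.00, 8.82, 8.92, 8.76 and 8.76 on WT macrophage arrays and 8.20, 8.59, 7.75, 7.25 and 7.91 on Mbd2-/- macrophage arrays. WT arrays were close together and all higher, while Mbd2-/- arrays spread over more than 1 log2 unit, array 19 being the lowest. The log2 difference was -0.91 (95% interval -1.35 to -0.46, adjusted p = 0.0186). It was -0.74 without Mbd2-/- array 19 (adjusted p = 0.0629), and -0.905 with macrophages normalized and fitted alone (adjusted p = 0.0864). The other detected Insig1 probes differed by -0.15 (adjusted p = 0.555) and -0.22 (adjusted p = 0.453), so the fall rested on 1 of 3 probes.

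Within the 2 column sets that held both genotypes of macrophages, Srebf2 differed by -0.54 and -0.48 and Insig1 by -1.33 and -0.58. Both sets gave a lower level in Mbd2-/- macrophages for both genes. Marker lists also moved between the genotypes: 2 of 7 monocyte markers were higher in Mbd2-/- macrophages, with summed levels of 6017 to 8345 against 4216 to 6992 in WT, and 1 of 11 macrophage markers was higher, with sums of 50584 to 56301 against 47879 to 54200. Of the other lists, 2 of 8 proliferation and 1 of 2 eosinophil markers were higher, and 1 of 5 cDC1 and 1 of 7 plasma and B cell markers were lower. In this comparison 5.33% of all genes passed in either direction. All 10 epithelial markers tested had positive differences of 0.14 to 1.08 (median 0.35, all genes -0.08), of which none passed, with summed levels of 10470 to 20095 against 6866 to 22995 in WT. Their part in the fall of Srebf2 and Insig1 was not tested.

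**Figure D4:**
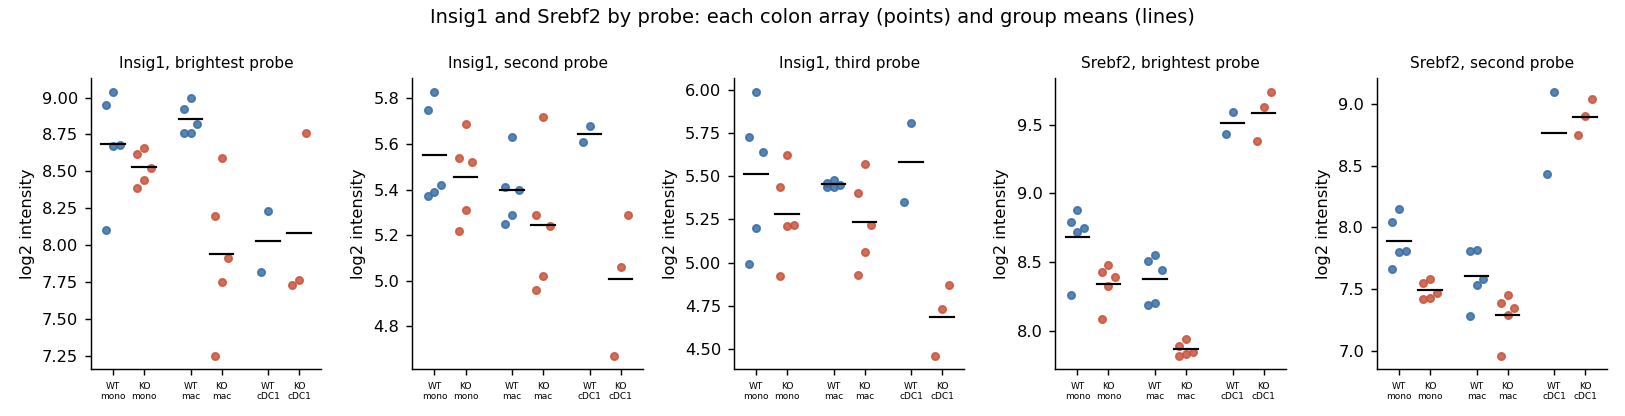
Log2 level on each array of the 3 detected Insig1 probes and the 2 Srebf2 probes, ordered by brightness within a gene, with arrays grouped by cell type and genotype and a bar at each group mean. The genotypes (WT blue, Mbd2-/- red and marked KO) separate in macrophages on the brightest probe of each gene, in monocytes on the second Srebf2 probe, and in cDC1s on the 2 dimmer Insig1 probes.

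Of the enzymes, Cyp51 pointed upward in Mbd2-/- macrophages. Its WT macrophage arrays read 6.55, 4.93, 6.71, 5.93 and 7.26 and its Mbd2-/- arrays 7.16, 6.66, 6.89, 7.54 and 8.16. The genotypes overlapped through WT arrays 13 and 15, at 6.71 and 7.26, and WT array 12 was the lowest of all 25. The log2 difference of 1.01 (95% interval 0.22 to 1.80) did not pass (adjusted p = 0.111), passed at 1.26 without WT array 15 (adjusted p = 0.042), and was 1.79 and 0.31 within the 2 column sets. Fdps differed by -0.39 (95% interval -0.77 to -0.01, adjusted p = 0.194), Idi1 by -0.23 (adjusted p = 0.606) and Sqle by 0.06 (adjusted p = 0.890).

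Of 47 other genes of the 5 lists tested in macrophages, 0 were higher and 2 were lower in Mbd2-/-, none by a log2 difference of 1. The share of all genes that passed in either direction was 5.33%. Lbr, a sterol reductase that is also the lamin B receptor, fell by 0.52 on the log2 scale (adjusted p = 0.0105), and Soat2, which esterifies cholesterol, fell by 0.97 (adjusted p = 0.00103). Both genes passed whichever macrophage array was left out. Neither passed under median scaling (adjusted p = 0.218 and 0.0645) or with macrophages fitted alone (0.0631 and 0.0602).

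Insig2, the second sensor gene of the Insig family, had a difference of 0.48 in macrophages (adjusted p = 0.0787) by its brightest probe. On that probe all Mbd2-/- arrays lay above all WT arrays, opposite in sign to Insig1. A second Insig2 probe did not show this, with means of 7.00 in WT and 6.94 in Mbd2-/- macrophages. Its arrays overlapped, at 6.82 to 7.28 in WT and 6.66 to 7.31 in Mbd2-/-. The other genes that were to be named had Mvk at -0.50 (adjusted p = 0.0918), Erlin1 at -0.355, Stard4 at -0.27, Lrp1 at 0.25, Cyp7b1 at -0.60, Acly at -0.25 and Scd1 at -0.69, of which none passed. Their roles lie in mevalonate phosphorylation, SREBP turnover, cholesterol transfer, endocytosis, oxysterol breakdown and fatty acid synthesis and desaturation.

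In monocytes none of the 6 members passed, against 1.85% of 11978 genes, and 0 were without overlap on the brightest probe, against 5.12%. All 6 log2 differences of Mbd2-/- from WT were below 0, from -0.47 for Fdps to -0.17 for Insig1, with a median of -0.38 (all genes -0.03). Srebf2 read 8.79, 8.72, 8.75, 8.26 and 8.88 on WT arrays and 8.43, 8.48, 8.39, 8.09 and 8.33 on Mbd2-/- arrays. WT array 4 was the single WT array inside the Mbd2-/- range. The difference of -0.33 (95% interval -0.57 to -0.10) did not pass (adjusted p = 0.151), nor did that of the second probe (-0.40, adjusted p = 0.135), on which the genotypes did not overlap.

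WT monocyte array 4 was the lowest WT array for 5 of the 6 genes, all but Insig1. Without it, 2 members passed, Srebf2 at -0.435 (adjusted p = 0.0247) and Fdps at -0.645 (adjusted p = 0.0328). Srebf2 also passed with arrays weighted by their quality (-0.36, adjusted p = 0.0409). Within the 2 column sets with both genotypes Srebf2 differed by -0.54 and -0.13. The differences of Idi1 (-0.43, adjusted p = 0.456), Sqle (-0.42, adjusted p = 0.369) and Cyp51 (-0.24, adjusted p = 0.844) did not pass, and the interval for Idi1 ran from -0.94 to 0.07. Among markers, all 6 plasma and B cell genes tested had negative differences (median -0.64, all genes -0.03), and 2 passed. Also 1 of 11 macrophage and 1 of 5 cDC1 markers passed lower, where 1.85% of all genes passed in either direction. The part of these markers in the differences of the members was not tested.

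Of 46 other listed genes tested in monocytes, none passed, where 1.85% of all genes did. Insig2 had 0.09 (adjusted p = 0.865). The 2 with the smallest p of each list were Pmvk (0.54) and Dhcr7 (-0.49) for synthesis, Erlin2 (-0.24) and Srebf1 (-0.43) for SREBP control, Stard4 (-0.42) and Scarb1 (0.79) for uptake, Soat1 (0.25) and Apoe (-0.33) for efflux and storage, and Scd1 (-0.83) and Acly (-0.20) for fatty acids. Scd1, the stearoyl-CoA desaturase, and Apoe were lower on all Mbd2-/- arrays than on any WT array.

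In cDC1s, with 2 WT and 3 Mbd2-/- arrays, none of the 6 members passed by its brightest probe, against 6.81% of 12949 genes, and 1, Cyp51, was without overlap, against 32.1%. The median log2 difference was 0.06 (all genes 0.05). Cyp51 was lower on all 3 Mbd2-/- arrays than on both WT arrays, by -1.21 (95% interval -2.35 to -0.07, adjusted p = 0.179), with WT array 26 at 8.66 and Mbd2-/- array 27 at 8.62. Fdps (0.07, 95% interval -0.47 to 0.62), Srebf2 (0.07, -0.27 to 0.40), Insig1 (0.06, -0.58 to 0.70), Idi1 (0.26, -0.47 to 0.99) and Sqle (-0.29, -0.91 to 0.33) all had intervals that held 0. No column set held both genotypes of cDC1s, so a difference between sets and between genotypes cannot be told apart here.

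The dimmer probes gave other values in cDC1s. The dimmest of the 3 detected Insig1 probes read 5.81 and 5.35 in WT and 4.87, 4.46 and 4.73 in Mbd2-/-, a difference of -0.89 (1.85-fold lower, adjusted p = 0.0294), and it was detected on 2 of the 3 Mbd2-/- arrays. The middle one read 5.68 and 5.61 in WT and 5.29, 5.06 and 4.67 in Mbd2-/-, a difference of -0.64 (adjusted p = 0.065). On both, every Mbd2-/- array was lower than every WT array, while the brightest probe overlapped. The second Sqle probe was 7.60 on WT array 23 and no higher than 4.84 on the other 4 cDC1 arrays, a difference of -1.48 that did not pass (adjusted p = 0.0704). The remaining Sqle and Insig1 probes were detected on no array.

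Of 45 other listed genes tested in cDC1s, 1 was higher and 2 were lower in Mbd2-/-, where 6.81% of all genes passed in either direction. Stard4, which moves cholesterol between membranes, was called lower at -1.0 (2.0-fold, adjusted p = 0.0152), Insig2 was lower at -0.80 (adjusted p = 0.0436) and Lrp1 higher at 0.89 (adjusted p = 0.0294). These rest on few arrays: Stard4 did not pass without WT array 23 (-0.78, adjusted p = 0.177), Insig2 not without WT array 23 (-0.44, adjusted p = 0.458) or Mbd2-/- array 28 (-0.56, adjusted p = 0.161) or 30 (-0.79, adjusted p = 0.0967), and Lrp1 not without WT array 23 (0.88, adjusted p = 0.149) or 26 (0.90, adjusted p = 0.0643) or Mbd2-/- array 28 (0.55, adjusted p = 0.113). None of the 3 passed with array weights or with cDC1s fitted alone, where the adjusted p was 0.0734 and 0.354 for Stard4, 0.135 and 0.412 for Insig2 and 0.0908 and 0.399 for Lrp1. Insig2 also did not pass under cyclic loess (adjusted p = 0.0753) or with no filter on dim probes (adjusted p = 0.0801). The second tested Insig2 probe overlapped between the genotypes, with means of 7.27 in WT and 7.11 in Mbd2-/- cDC1s. Lrp1 was 0.34 with no background correction (adjusted p = 0.143), 0.50 at an offset of 50 (adjusted p = 0.0834) and 0.41 under median scaling (adjusted p = 0.467), and with no filter its adjusted p was 0.0559. The other genes to be named were Mvd (0.54), Pmvk (0.48), Scap (0.34), Abcg1 (0.81, adjusted p = 0.0644), Nr1h3 (0.675), Elovl6 (-0.48) and Scd2 (-0.56), and none of them passed.

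Marker lists were read by genotype in cDC1s as well. All 11 macrophage markers had positive differences, of 0.12 to 1.03 (median 0.44, all genes 0.05). Among them 1 passed, beside 6.81% of all genes, and 4 were without overlap, beside 32.1% of all genes. Their summed level was 3200 to 6238 in Mbd2-/- against 2775 and 2911 in WT. Of the other lists, 1 of 4 neutrophil, 1 of 3 eosinophil and 1 of 8 proliferation markers passed upward. Their part in the differences of Lrp1, Stard4 and Insig2 was not tested.

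Whether loss of Mbd2 acted differently in different cell types was tested as the difference between the genotype effects. For Cyp51 the effect in cDC1s minus that in macrophages was -2.22 (95% interval -3.61 to -0.83, adjusted p = 0.0484), the effects being -1.21 and 1.01. It was the 1 member of 6 to pass, against 6.27% of 16738 genes. No column set held both genotypes of cDC1s. In every difference of effects that uses cDC1s, genotype and column set therefore cannot be told apart on the cDC1 side. The call was lost when any 1 of 10 arrays was left out: WT macrophage 11 (-2.29, adjusted p = 0.0568), 12 (-1.88, adjusted p = 0.0663) or 14 (-2.13, adjusted p = 0.071), Mbd2-/- macrophage 16 (-2.26, adjusted p = 0.0551), 18 (-2.32, adjusted p = 0.0508), 19 (-2.16, adjusted p = 0.0744) or 20 (-2.01, adjusted p = 0.0748), WT cDC1 23 (-1.82, adjusted p = 0.304), and Mbd2-/- cDC1 28 (-1.98, adjusted p = 0.115) or 30 (-2.09, adjusted p = 0.103). The difference of effects was 0.97 for Insig1 (adjusted p = 0.119) and 0.58 for Srebf2 (adjusted p = 0.0718), so the fall of both in macrophages was not shown to be particular to them.

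Against monocytes, 0 of 6 members passed for the effect in macrophages, where 0.0290% of 13790 genes did, and 0 of 6 for the effect in cDC1s, where 0.893% of 16234 genes did. For macrophages minus monocytes the largest values were 1.25 for Cyp51 (adjusted p = 0.689) and -0.74 for Insig1 (adjusted p = 0.682), and Srebf2 had -0.18 (adjusted p = 0.869). For cDC1s minus monocytes values ran from -0.97 for Cyp51 to 0.69 for Idi1. Of 48 other listed genes tested for cDC1s against macrophages, Insig2 and Soat2 passed, beside 6.27% of all genes. None passed for either comparison with monocytes.

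The members did not form 1 tight group once cell type and genotype were removed. Deviations of each array from its group mean were correlated between each of the 15 pairs of members over the 25 arrays, which share their groups and normalization, and Pearson's r ran from -0.33 to 0.62 with a median of 0.11. The closest pair was Sqle and Cyp51 (r = 0.62), and the most opposed was Insig1 and Cyp51 (r = -0.33). Fdps went with Sqle (r = 0.51) and with Srebf2 (r = 0.51), and Insig1 with Idi1 (r = 0.51). Against the mean deviation of the members, the 5 most alike of 11233 other probes were Sc4mol (r = 0.76), now named Msmo1, a sterol demethylation enzyme, Lat2, an adaptor of immune receptors (r = 0.72), 2610524H06Rik (r = 0.70), Aacs, which makes acetoacetyl-CoA (r = 0.70), and Ccbl1, a lyase of cysteine conjugates (r = 0.70). Spearman's rho was 0.26 for Aacs and 0.56 to 0.70 for the other 4. Pearson's r over all these probes had a median of -0.01 and a 95th percentile of 0.38. The 10 other synthesis genes detected on every array had a median of 0.29 and the 7 uptake genes one of -0.14.

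**Figure D5:**
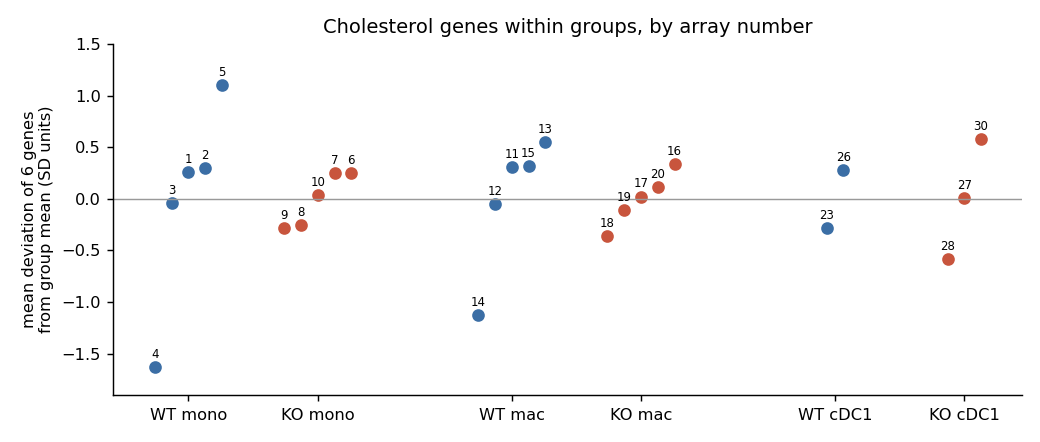
Mean deviation of the 6 genes from their group means on each of the 25 colon arrays, each gene divided by its SD, with 1 point per array, labelled by its number and grouped by cell type and genotype (Mbd2-/- marked KO). WT monocyte array 4 (-1.63) and WT macrophage array 14 (-1.12) lie lowest, and WT monocyte array 5 (1.10) highest.

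Some arrays had all 6 members on the same side of their group means, and their share in the correlations was not tested. On WT monocyte array 4 and on WT macrophage array 14 all 6 members were below their group means, with mean deviations of -1.63 and -1.12 SD, and on WT monocyte array 5 and WT macrophage array 13 all 6 were above, at 1.10 and 0.55 SD. No Mbd2-/- array had all 6 members on the same side. Fdps, for one, read 9.55 on WT monocyte array 4 and 10.64 on WT monocyte array 5, beside a genotype difference of -0.47 in that cell type.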

How the data were processed

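The authors deposited raw bead intensities, neither normalized nor background-subtracted, and a detection p-value for every probe on each array. Submitters' processing notes name lumi and limma with no version. The paper gives 1 to 10 mice per replicate, the deposited record 1 to 5. Here limma 3.58.1 (with the data.table package, version 1.17.8, in R 4.3.3) corrected background by normexp on 936 negative controls (offset 16), quantile-normalized the 25 colon arrays and took log2. A model of 6 groups (lmFit, eBayes) was fitted and p-values were adjusted by Benjamini-Hochberg within a comparison, over probes detected (p under 0.05) in as many arrays as its smaller group. The brightest probe stood for a gene. The procedure was tested on simulated data. The number of arrays limits the precision. Splenic CD4 T cells and 3 signal columns of no sample were not used.

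The members and lists were chosen with earlier results of these data known. Some genes of these lists are not reported here and were left out of the list counts. Named genes are the members, Insig2, called list genes, the 2 smallest p per list and genotype comparison, and the 5 most alike probes. Other named genes were chosen after their values were seen. Other settings comprised the raw background, offset 50, median scaling, cyclic loess, looser and stricter filters on dim probes, array weights, each cell type or genotype alone, random blocks and each array left out.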

Additional observations from a re-analysis of the deposited data

Results flagged for a closer look

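Srebf2 on WT monocyte array 4, at 8.26, lay apart from the other 4 WT monocyte arrays (8.72 to 8.88), its gap to the nearest being 0.743 of the range of the group. It was 1 of 24 gene and group combinations tested for such an array, and chance gives about 1 in 20.

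The difference of Mbd2-/- from WT arrays differed between cDC1s and macrophages, by a test of the difference itself (limma interaction), for 3 genes. No column set held both genotypes of cDC1s, so on the cDC1 side genotype and column set cannot be told apart. They came from 6 members and 48 other listed genes tested, in a comparison that 6.27% of all 16738 genes passed. The effect in cDC1s minus that in macrophages was -2.22 for Cyp51 (adjusted p = 0.0484), -1.28 for Insig2 (adjusted p = 0.0147) and 1.13 for Soat2 (adjusted p = 0.0189). By the brightest probe of each gene, the Mbd2-/- mean of Cyp51 and Insig2 was higher than the WT mean in macrophages and lower in cDC1s. For Soat2 it was the reverse. Without WT cDC1 array 23 the values were -1.82 for Cyp51 (adjusted p = 0.304) and -0.93 for Insig2 (adjusted p = 0.156), and without WT cDC1 array 26 that of Soat2 was 0.96 (adjusted p = 0.0541). Array weights gave -1.23 for Insig2 (adjusted p = 0.0501) and 1.04 for Soat2 (adjusted p = 0.0729), and median scaling gave 0.46 for Soat2 (adjusted p = 0.712). A second tested Insig2 probe gave a genotype difference of -0.16 in cDC1s (adjusted p = 0.658). In macrophages its Mbd2-/- mean (6.94) was also below its WT mean (7.00), so the turn in sign rested on the brightest probe.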

How the results depend on the processing

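Median scaling moved the median of all genes to -0.28 for Mbd2-/- against WT monocytes, -0.36 for cDC1s, -0.33 and -0.31 for cDC1s against macrophages and monocytes, and 0.18 for the effect in macrophages against that in monocytes, so its values are to be read against these. Under it, members passing numbered 1 in Mbd2-/- against WT macrophages and 1 in macrophages against monocytes, pathway genes 0 in macrophages, and signs turned for Sqle in macrophages (-0.00458), Idi1 (-0.286), Insig1 (-0.574), Fdps (-0.277) and Srebf2 (-0.484) in cDC1s, and Fdps in macrophages against monocytes (-0.0694). That Fdps value was also -0.0113 under cyclic loess, -0.0636 with array weights and -0.0318 over WT arrays alone, and the Insig1 value in cDC1s -0.0218 under cyclic loess and -0.00509 with array weights. Over WT arrays alone Insig1 was 0.161 and 0 members passed in macrophages against monocytes, and over Mbd2-/- arrays alone Idi1 was 0.028 and Cyp51 0.52 there, and Insig1 0.14 in cDC1s against macrophages. The Cyp51 difference of effects was lost (0 members) under cyclic loess, with no filter on dim probes and with array weights (adjusted p = 0.0741, 0.0954 and 0.159). Array weights gave 1 member and 3 pathway genes in monocytes and 0 pathway genes in cDC1s. In cDC1s, no filter gave 1 pathway gene. With each cell type alone, 0 members and 0 pathway genes passed in macrophages, 1 pathway gene in monocytes and 0 in cDC1s. In each case the cause was not tested. All other settings kept the counts of members within 1.5 times.

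With each array left out, members passing ranged from 0 to 2 in monocytes, 1 to 3 in macrophages, 4 to 6 in cDC1s against macrophages, 5 to 6 against monocytes and 0 to 1 for the effect in cDC1s against that in macrophages, and pathway genes from 2 to 4 in macrophages (4 without WT array 15) and 0 to 4 in cDC1s. Values whose sign turned ranged from -0.0846 to 0.0789 for Fdps and -0.23 to 0.0623 for Cyp51 in macrophages against monocytes, -0.23 to 0.61 for Idi1, -0.28 to 0.26 for Insig1 and -0.0127 to 0.17 for Srebf2 in cDC1s, and -0.0607 to 0.17 for Sqle in macrophages.

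The labels number every array once, so that no groups share a replicate number, and they do not say that arrays 10 apart are paired. Deviations of the 10 pairs of monocyte and macrophage arrays 10 apart correlated from -0.0208 to 0.562, and 8 of them over 0.1. With these pairs as a random block (correlation 0.0557), or columns in sixes as one (0.0183), no count of members changed. Probes near background, such as the dimmer Sqle and Insig1 probes, and that of Idi1 on its dimmest arrays, give only bounds on a change.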

Other observations

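Symbols outside the members, looked up after the members' values were seen, had array annotations that name members. LOC666559, annotated as similar to farnesyl pyrophosphate synthase, was higher in cDC1s than in macrophages by 2.09 on the log2 scale (limma, adjusted p = 2.25e-07) and than in monocytes by 1.74 (adjusted p = 3.03e-06), beside 1.73 and 1.73 for Fdps. LOC100040592, annotated as similar to the Hmgcs1 protein, was higher in macrophages (0.37, adjusted p = 0.00314) and in cDC1s (0.51, adjusted p = 0.000774) than in monocytes. Neither passed for genotype in any cell type. Whether these probes read the member's own transcript or that of a copy cannot be told apart from the array.

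Among the listed genes, some differed more between macrophages and monocytes than any member did. Fads1, a fatty acid desaturase, was higher in macrophages by 1.99 (adjusted p = 7.62e-15), Ch25h, which makes a hydroxylated sterol, by 1.62 (adjusted p = 3.54e-07), and Lipa by 1.41 (adjusted p = 5.29e-06), while Soat2 fell by 1.08 (adjusted p = 3.46e-08).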
